A study of Sus scrofa with 6 samples.

Results

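BAFF, APRIL and their 3 receptors are the set of 5 genes described here, chosen by symbol among the 20648 genes of the ileal scRNA-seq matrices. The ligands were BAFF, encoded by TNFSF13B, and APRIL, encoded by TNFSF13. The receptors were BAFF-R (TNFRSF13C), TACI (TNFRSF13B) and BCMA (TNFRSF17). All 5 symbols were found, and all 5 passed the filter on low counts. In Sscrofa11.1, the assembly named for the files, TNFRSF13C lies at chr5:6699812-6703403, TNFRSF13B at chr12:61245976-61270154, TNFRSF17 at chr3:31137672-31141862, TNFSF13B at chr11:75599296-75633044 and TNFSF13 at chr12:52853646-52857033. TNFRSF17 overlaps the noncoding gene LOC100739121, which is not a row of the matrices. TNFSF13 lies 318 bases from its neighbor TNFSF12, and whether reads near this gap were counted for the other gene was not checked.

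BAFF and APRIL belong to the tumor necrosis factor family and are made mainly by myeloid, stromal and some innate lymphoid cells. BAFF-R binds BAFF alone and keeps resting B cells alive through the noncanonical NF-κB pathway, TACI binds both ligands and is known for T-cell-independent class switching to IgA, and BCMA binds both, APRIL more tightly, and sustains plasma cells. In the ileum of young pigs, B cells fill the follicles of a large continuous Peyer's patch.

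The samples were male Large White piglets fed on the milk of the sow and given no antibiotics, with 1 library of scraped ileal mucosa at each of 6 ages, days 0 (birth), 1, 3, 7, 14 and 21. The methods of the study give 5 piglets per age and 1 chip channel per group, and do not say how cells of these piglets were combined. The sample labels name the ileum, whereas the description of the whole series names the cecum. Each captured transcript was counted once by its unique molecular identifier (UMI).

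Barcodes with at least 1000 UMIs and 500 genes were taken as cells. The libraries held 77391932 to 100348769 UMIs, 10836 to 15956 cells and a median of 3693 to 4560 UMIs per cell, 76099 cells in all. Any 2 libraries shared 31 to 68 cell barcodes, where 18.1 to 32.5 would be shared by chance. Cells were classed by marker UMIs, namely B cells by MS4A1, PAX5 and POU2AF1 (2 or more in sum), plasma cells by JCHAIN (5 or more) and TXNDC5 (2 or more), T cells by CD3E and CD3G (2 or more in sum), myeloid cells by LYZ, CST3 and AIF1 (10 or more in sum), stromal cells by COL3A1 (5 or more) and epithelial cells by EPCAM, KRT8 and VIL1 (5 or more in sum). This gave 50706 B, 778 plasma, 4755 T, 1277 myeloid, 761 stromal and 3815 epithelial cells. Another 12457 cells met no rule, and 1550 cells met several rules and were left out of the classes.

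Markers outside the rules followed the class names in part. Per 10000 UMIs, the summed B list (CD79B, CD22, BANK1, EBF1 and FCRLA) was 12.1 to 17.9 in B cells and 0.242 to 1.06 in T cells. The stromal list was 81.8 to 91.6 in stromal cells and at most 1.46 in any of the other 5 classes. Myeloid cells, however, held the follicular stroma list (CXCL13 and FCAMR) at 0.0354, 6.91, 16.9 and 9.15 on days 0, 1, 3 and 14. Stromal cells held it at 1.03, 3.99 and 12.6 on days 0, 1 and 3. On day 3 the myeloid list itself was 16.4 in myeloid cells. The part of these genes' cells in the myeloid results below was not tested. Cells of no rule held the B list at 3.62 to 14.98, so they include cells with B cell genes. The plasma class overlapped B cells, as 732 of its 778 cells also met the B rule and its B list reached 8.22 to 9.93. The makeup of the libraries differed with age. B cells were 20.1% of cells on day 0 and 93.7% on day 21, stromal cells were absent from the classes after day 3, and 1 epithelial cell and 5 myeloid cells were left on day 21. No doublet caller was run.

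A level is the number of a gene's UMIs in every 1000000 UMIs counted over all cells of a class together. With 1 library per age, no difference between ages was tested, and every interval is a 95% interval for counting error only. Classes were compared across libraries with edgeR on summed UMIs, with the library as a block, in 28 sums of at least 20 cells (6 B, 6 T, 5 epithelial, 4 myeloid, 4 plasma and 3 stromal). Because each library was another age, the spread in these tests includes age. A gene was called when the Benjamini-Hochberg adjusted p over 12798 genes was below 0.05 and the fold was at least 2. Barcodes with 100 UMIs or fewer served as a measure of RNA outside cells. It was not subtracted from any level. Such RNA comes from the cells of the library, so it nears the level of a class that makes up most of them. A level at or below it therefore does not show that a class lacks the transcript.

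**Figure D1:**
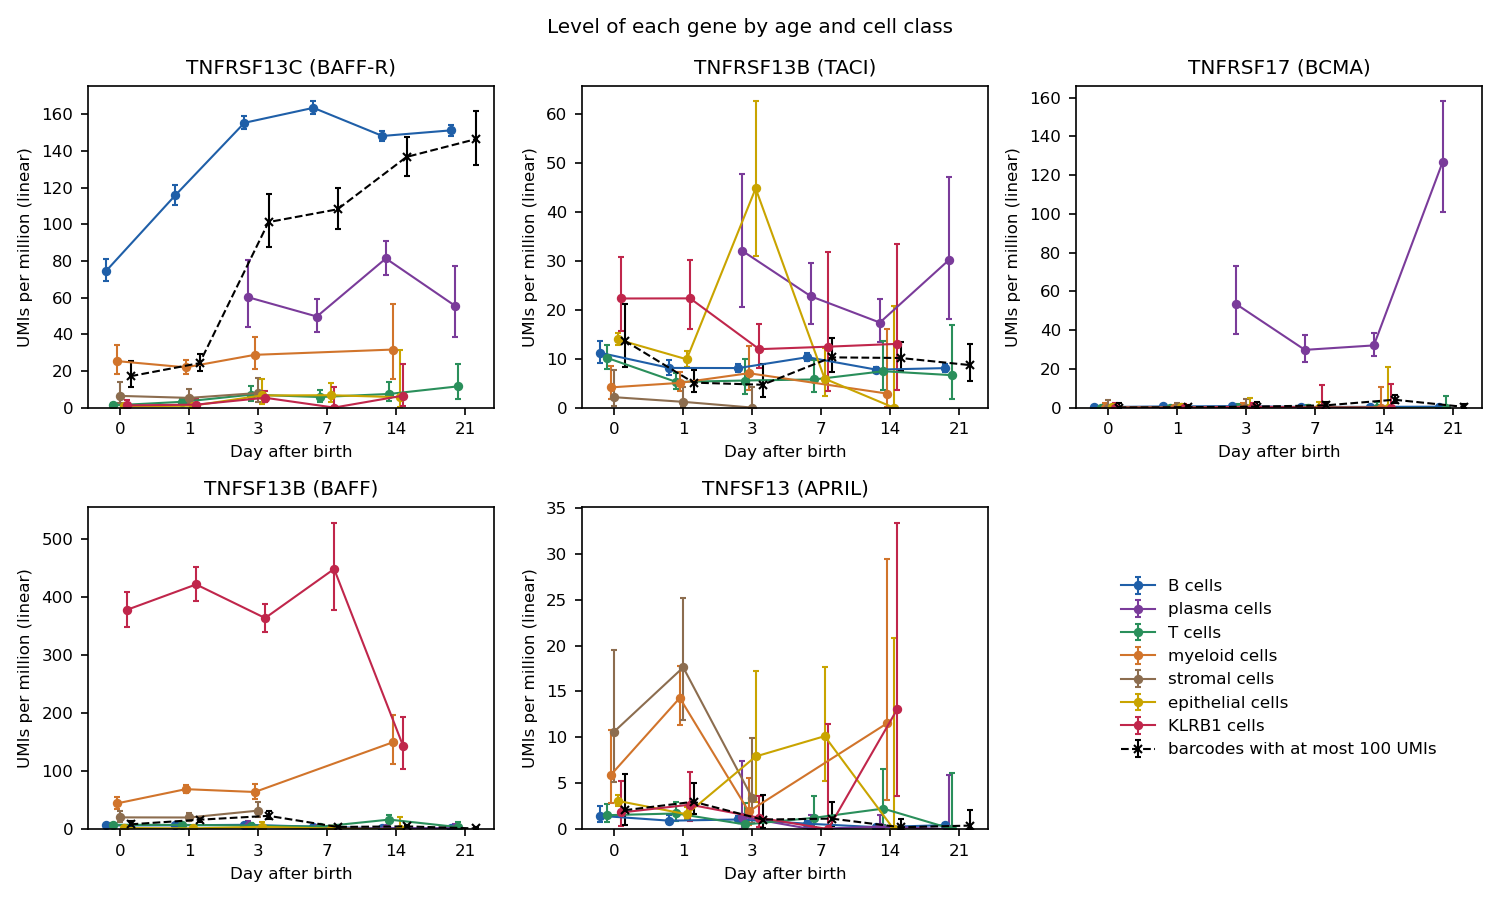
Level of each of the 5 genes (linear axis, UMIs per 1000000) against day after birth for the 6 cell classes, for the KLRB1 cells defined in the account of TNFSF13B, and for barcodes with at most 100 UMIs (dashed). Points are single libraries with at least 20 cells of the class and bars are 95% Poisson intervals; BAFF-R stood highest in B cells at every age, BCMA in plasma cells at every age shown for them, and BAFF in KLRB1 cells on days 0 to 7.

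BAFF-R, the receptor through which BAFF keeps mature B cells alive, was the B cell gene of the set. In B cells, TNFRSF13C stood at 74.7, 115.9, 155.3, 163.5, 148.2 and 151.2 on days 0, 1, 3, 7, 14 and 21. The day 0 library was the lowest, the day 1 library lay between, and the 4 later libraries were close together. The ratio of day 21 to day 0 was 2.02 (1.87 to 2.20), and that of day 21 to day 3 was 0.974 (0.944 to 1.00). This ratio of day 21 to day 0 was 1.64 with TMM-scaled library sizes and 2.61 with the rules applied as written, cells of several rules included. Of 11890 genes with enough UMIs in B cells, 27.7% were at least 2-fold higher on day 21 than on day 0, and the median ratio over all of them was 1.43, so a ratio near 2 was not unusual.

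A UMI of TNFRSF13C was found in 22.3% of B cells on day 0 and in 35.0%, 46.5%, 47.1%, 44.7% and 40.0% on the later days in order, against 0.458% to 3.53% of T cells, with median depths of 3377 to 4650 UMIs in B cells and 2524 to 4522 in T cells. With every cell thinned to 1000 UMIs these shares of B cells became 7.82%, 10.3%, 15.0%, 14.9%, 13.8% and 13.7%. The order of day 0, day 1 and the later days was thus kept at equal depth.

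Across classes the order of TNFRSF13C levels was B cells, plasma cells, myeloid cells and then the other 3. Plasma cells ranged from 49.7 to 81.3 and myeloid cells from 22.0 to 31.6, and their ranges did not overlap. T cells ranged from 1.21 to 11.6, stromal cells from 5.29 to 7.96 and epithelial cells from 0.697 to 6.75, and these ranges overlapped. Barcodes with at most 100 UMIs held 17.1, 24.3, 101.2, 108.2, 136.7 and 146.4 by day and all cells together 13.5, 38.5, 126.3, 143.7, 140.2 and 147.4, close to each other on days 14 and 21. The myeloid level was not above RNA outside cells on days 1, 3 and 14, nor was the plasma level in any of its 4 libraries. B cells were above it in all 6, by little on days 14 and 21. Since they were 89.2% and 93.7% of cells on these days, the comparison cannot set their level apart there.

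In edgeR's quasi-likelihood test, TNFRSF13C in B cells exceeded the mean of the other 5 classes by a log2 fold change of 3.95 (SE 0.20, adjusted p = 9.48e-13), where 13.1% of genes were called higher. The scaling mattered for the background of this comparison. The median log2 fold change over all genes was 0.18 with TMM, -0.14 without it and -0.16 with DESeq2's size factors, and the share of called genes that were higher was 56.3%, 35.0% and 24.9%, but TNFRSF13C in B cells passed in every alternative run, with log2 fold changes of 2.69 to 4.03. It was lower in T cells (log2 fold change -2.05, SE 0.29, adjusted p = 8.92e-06; 8.92% of genes called lower and 8.86% higher), in epithelial cells (-3.71, SE 0.39, adjusted p = 3.51e-08; 15.7%) and in stromal cells (-1.59, SE 0.43, adjusted p = 0.00431; 10.8%). The stromal call was lost without the day 1 library (-1.44, adjusted p = 0.0551) and without the day 3 library (-1.41, adjusted p = 0.0545). Higher genes were 49.8% of those called in T cells with TMM, 45.6% without it and 36.1% with DESeq2, and 65.6%, 83.7% and 72.8% in stromal and 57.6%, 67.8% and 62.7% in epithelial cells.

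**Figure D2:**
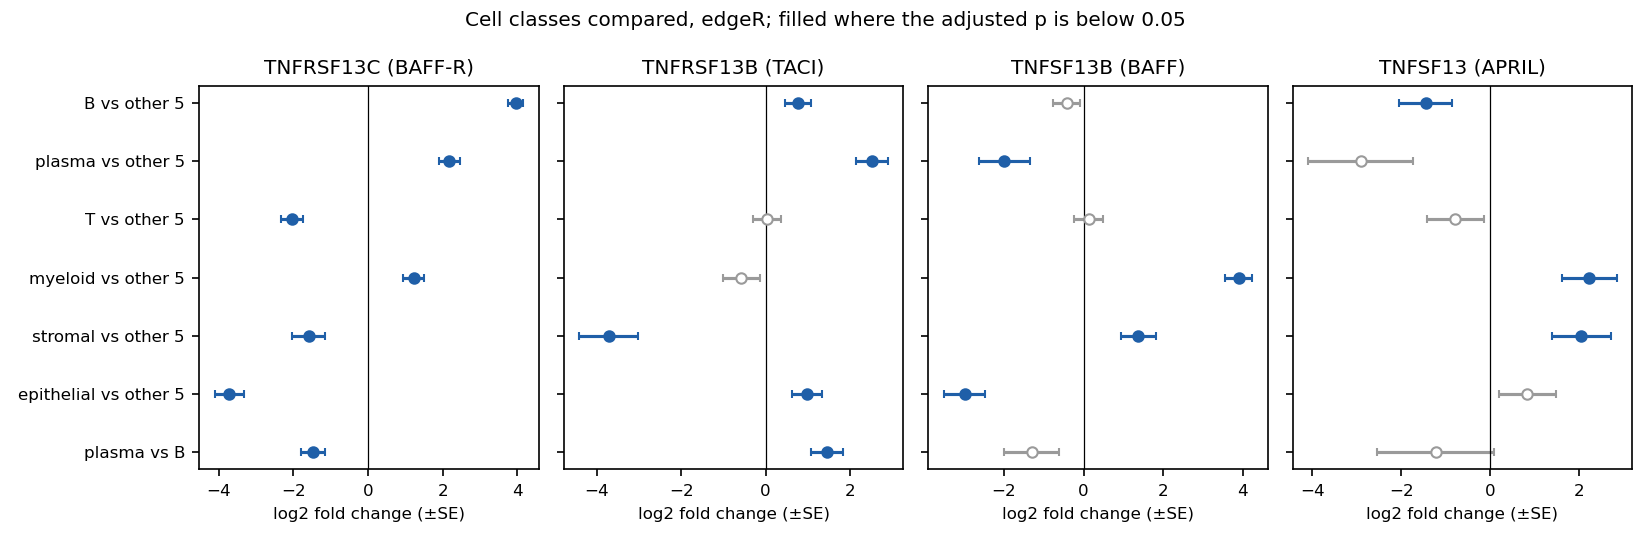
Log2 fold change (x axis, with SE bars) from edgeR of 4 of the genes in each cell class against the mean of the other 5, and in plasma against B cells. Filled points have an adjusted p below 0.05; TNFRSF17 is not drawn because several classes hold none of its UMIs. BAFF-R lay highest in B cells (3.95) and BAFF highest in myeloid cells (3.90).

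Myeloid cells and plasma cells also stood above the mean of the other classes in this test, which makes no correction for RNA outside cells. In myeloid cells the log2 fold change of TNFRSF13C was 1.22 (SE 0.28, adjusted p = 0.00160; 14.4% of genes called higher in myeloid cells and 6.24% lower), but it was -0.20 (adjusted p = 0.604) with cells of several rules counted in each class. The B list summed to 0.767 to 1.44 per 10000 UMIs in myeloid cells, against 0.242 to 1.06 in T cells, and its part in this result was not tested. In plasma cells the log2 fold change was 2.18 (SE 0.29, adjusted p = 6.97e-06; 6.92% called higher). Set directly against B cells, plasma cells had less BAFF-R, by -1.48 on the log2 scale (SE 0.31, adjusted p = 0.00251; 5.11% called lower), and their level was lower in 4 of 4 libraries, with ratios of 0.304 to 0.549. Without the day 7 library this difference was -1.10 (adjusted p = 0.0779). Called genes in plasma cells were higher in 42.5% of cases with TMM, 22.6% without it and 42.4% with DESeq2 against the other classes, and in 41.6%, 42.9% and 72.9% against B cells.

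TACI, the receptor of both ligands, was thinly spread, and in several classes its level was near that of RNA outside cells. In B cells TNFRSF13B stood at 11.2, 8.11, 8.09, 10.3, 7.76 and 8.08 from day 0 to day 21, with a ratio of day 21 to day 0 of 0.722 (0.577 to 0.911). Barcodes with at most 100 UMIs held 13.7, 5.11, 4.67, 10.3, 10.1 and 8.70 in the same order. In value, B cells were at or below RNA outside cells on days 0, 14 and 21 and above it on days 1 and 3. On day 7 there was hardly any difference. Those barcodes held 162 UMIs of the gene over the 6 libraries. Counting intervals overlapped on every day, so the order of B cells and RNA outside cells is not settled on any day. Plasma cells were above RNA outside cells in all 4 of their libraries. T cells ranged from 5.24 to 10.1, overlapping B cells. They were below RNA outside cells on days 0, 7, 14 and 21, and on days 1 and 3, at 5.24 and 5.54, hardly above it. Here too the counting intervals overlapped on every day. Myeloid cells, at 2.88 to 7.03, lay below the lowest B cell library, and stromal cells were lowest with 0 to 2.13.

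Plasma cells had the highest median level over libraries of TACI, at 32.1, 22.8, 17.4 and 30.2 on days 3, 7, 14 and 21. All 4 libraries lay above the B cells of the same day, by ratios of 2.21 to 3.97. Against B cells, the log2 fold change was 1.46 (SE 0.38, edgeR adjusted p = 0.0109; 3.63% of genes called higher), and against the mean of the other 5 classes it was 2.52 (SE 0.38, adjusted p = 3.72e-05). The difference from B cells was 1.32 (adjusted p = 0.0597) without the day 21 library. In B cells against the mean of the other classes TNFRSF13B had a log2 fold change of 0.77 (SE 0.30, adjusted p = 0.0364), which lies below a fold of 2, and this did not pass 0.05 without the library of day 0 (0.73, adjusted p = 0.109), day 1 (0.63, 0.200), day 7 (0.42, 0.322) or day 14 (0.64, 0.107). In T and myeloid cells it did not pass (log2 fold changes 0.03 and -0.57, adjusted p = 0.992 and 0.350), and in stromal cells it was lower (-3.73, SE 0.69, adjusted p = 1.28e-04).

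Epithelial cells held 51.2% of all TNFRSF13B UMIs of cells on day 0 and 27.2% on day 1, while they were 23.9% and 7.96% of the cells. They were also deep, with a median of 9315 and 14975 UMIs on these days, so the shares of cells overstate the contrast. Their level was 13.9, 9.88, 44.8 and 5.91 on days 0, 1, 3 and 7, and 0 of 27 cells on day 14 had a UMI, which allows a level of up to 17.0 at 3 counts. Over all cells the level was 12.5 on day 0 and 8.11 on day 1. On day 0 the epithelial level was close to the 13.7 of barcodes with at most 100 UMIs. It was above their 5.11 and 4.67 on days 1 and 3. On day 7, from 7 UMIs, it was below their 10.3, with overlapping counting intervals. The day 3 value stood apart and came from 34 UMIs in 87 cells (31.1 to 62.7). The log2 fold change in epithelial cells was 0.98 (SE 0.35, edgeR adjusted p = 0.0217), just under a fold of 2, and it was 0.44 (adjusted p = 0.164) without the day 3 library.

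KLRB1 cells, defined with the account of TNFSF13B, held TNFRSF13B at 22.3 on days 0 and 1, above B cells of those days. These were their highest libraries, as the range over 5 libraries was 11.95 to 22.3 with a median of 13.0.

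BCMA, the receptor that plasma cells need to survive, was highest in the plasma class. TNFRSF17 in plasma cells stood at 53.5 (38.2 to 72.9), 29.8 (23.3 to 37.5), 32.1 (26.6 to 38.4) and 127.1 (100.8 to 158.2) on days 3, 7, 14 and 21. The day 21 library was highest, 3.96 times (2.94 to 5.29) the level of day 14. On day 0 the single plasma cell held 7 UMIs, and on day 1 the 3 plasma cells held 7. B cells ranged from 0.241 to 0.739, with 2 to 36 UMIs per library, and their ratio of day 21 to day 0 rested on 2 UMIs on day 0 and was 1.99 (0.504 to 17.2). On days 7 and 14 B cells, at 0.353 and 0.359, were below barcodes with at most 100 UMIs, at 1.14 and 4.06. Their counting intervals overlapped on day 7. On the other days those barcodes held 0 or 1 UMI, too few to set B cells apart from RNA outside cells.

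Plasma cells exceeded B cells by a log2 fold change of 6.72 (SE 0.43, edgeR adjusted p = 7.93e-07), and no alternative lost this call. No UMI was found in 4755 T, 1277 myeloid and 761 stromal cells. With 3 counts over each class as the floor, the pooled plasma level of 43.1 was 296 times the floor in T cells. It was 136 times the floor in myeloid cells and 50.6 times that in stromal cells. These folds leave out the counting interval of the plasma level. The pools also differ in age, with 1 plasma and 1747 T cells on day 0 and 3 plasma and 1612 T cells on day 1. The 778 plasma cells, of 76099 cells in all, held 62.2% of the TNFRSF17 UMIs of cells, B cells held 23.5% and cells of several rules 12.6%.

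Within plasma cells, BCMA was higher from day 3 on in those without a UMI of MS4A1 and PAX5. POU2AF1, the other gene of the B rule, was not part of this split, and depth was not matched. In the 119 plasma cells without a UMI of MS4A1 or PAX5, TNFRSF17 was 857.8, 68.8, 65.6 and 287.8 on days 3, 7, 14 and 21, from 5, 32, 73 and 7 cells. In the 659 cells with such a UMI it was 14.0, 25.9, 27.4 and 109.3 on the same days. The ratios were 61.1 (29.1 to 140.1), 2.65 (1.40 to 4.75), 2.39 (1.53 to 3.65) and 2.63 (1.47 to 4.51). Cells without these markers were higher in these 4 libraries, and the day 3 ratio rests on 30 UMIs in 5 cells. On day 1 the order was the other way, with 2 UMIs in 1 cell without and 5 UMIs in 2 cells with the markers. This split was chosen after the data were seen and was not tested further.

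BAFF was found in 2421 of the 76099 cells, of which 1218 met no lineage rule. Over all cells TNFSF13B was 14.6, 26.6, 32.4, 7.18, 3.31 and 1.14 by day. The level on day 3 was 28.5 times (22.5 to 36.5) that on day 21, while B cells, which held little of it, went from 70.0% to 93.7% of cells. Fewer cells of a kind and fewer UMIs per cell both lower this figure, so the classes are given one by one. Of the 5863 TNFSF13B UMIs in cells, 42.5% lay in the KLRB1 cells described next and 23.3% in the other cells that met no rule. The part in KLRB1 cells was 57.3% on day 0, 32.2% on day 7 and 14.8% on day 14, and on days 7, 14 and 21 B cells held more, with 48.5%, 36.7% and 86.1%. B cells were 79.4%, 89.2% and 93.7% of cells on these 3 days, so their part of the UMIs was below their part of the cells.

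**Figure D3:**
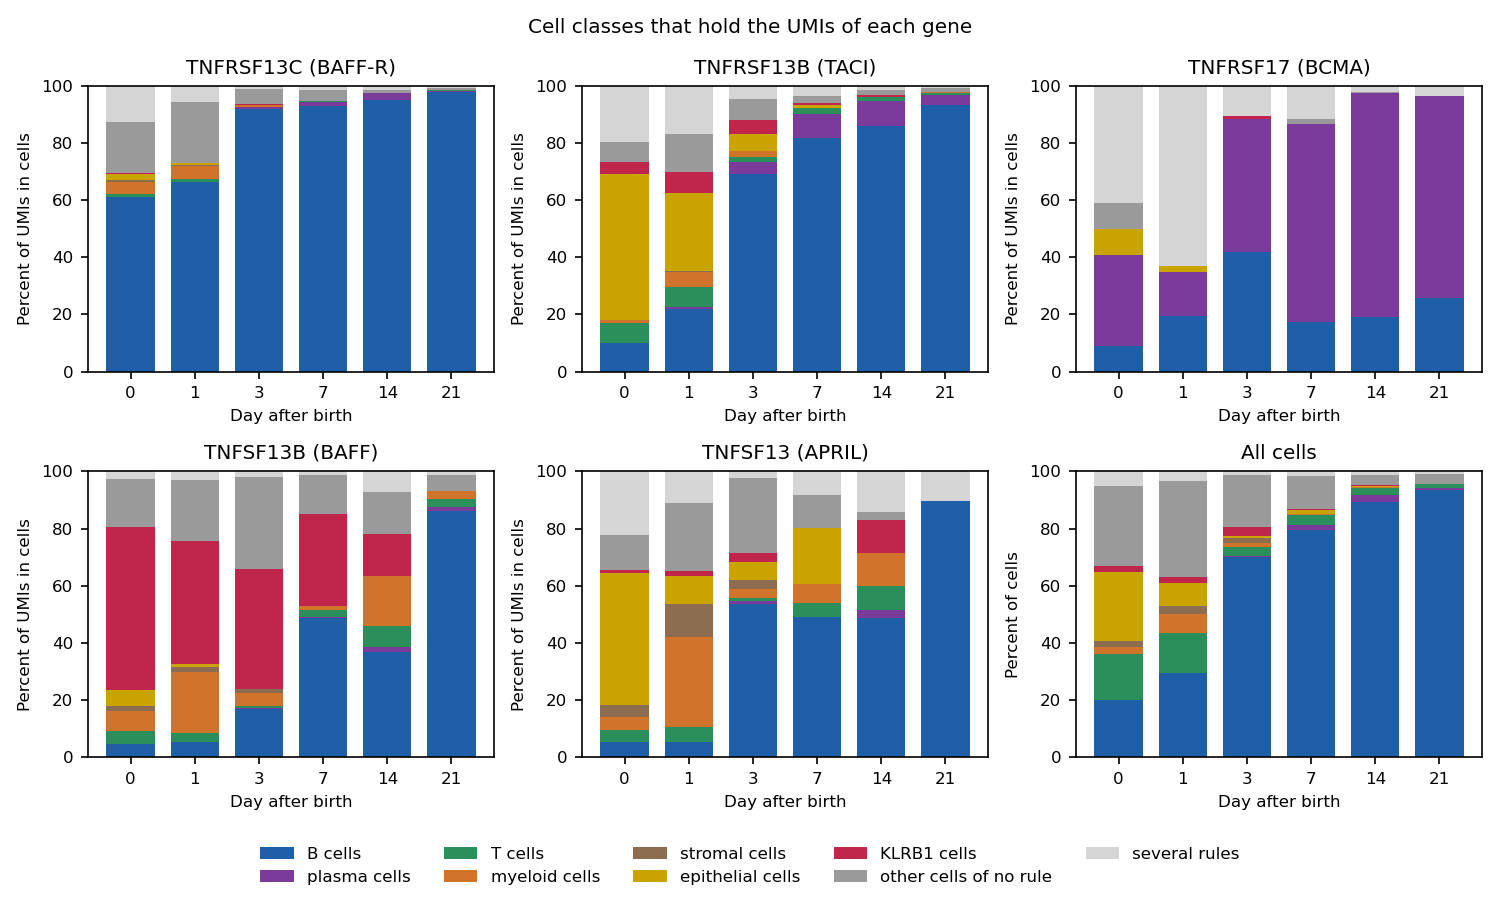
Percent of the UMIs of each gene found in each cell class by day after birth, as stacked bars that add to 100%, with the percent of cells in each class in the last panel. BAFF UMIs lay in KLRB1 cells for 57.3% on day 0 and in B cells for 86.1% on day 21, when only 72 UMIs were found in all. These classes were 2.38% and 93.7% of the cells of those days.

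Among cells of no rule, TNFSF13B followed KLRB1, the gene of the lectin receptor CD161. Cells of no rule with 3 or more KLRB1 UMIs, called KLRB1 cells here, numbered 258 to 368 on days 0, 1 and 3, 56 on day 7, 78 on day 14 and 1 on day 21. This gate was chosen after the values were seen, so its levels are a description. In KLRB1 cells TNFSF13B was 378.2 (349.1 to 409.0), 421.8 (393.0 to 452.3), 363.9 (340.3 to 388.7), 448.5 (378.3 to 528.1) and 143.4 (104.2 to 192.5) on days 0, 1, 3, 7 and 14. The first 4 libraries were close together, and the day 14 level was 0.320 (0.223 to 0.451) of that on day 7.

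KLRB1 cells numbered 1025 of the 76099 cells. A UMI of the gene was found in 69.4%, 75.0%, 66.6%, 67.9% and 32.1% of them, and in 26.4%, 33.7%, 27.4%, 30.4% and 7.69% when cells were thinned to 1000 UMIs, against 0 to 0.219% of thinned epithelial cells. Thinned myeloid cells had a UMI in 1.65%, 5.49%, 5.20%, 5.56% and 10.8% on the same days. On day 14, with 78 KLRB1 and 74 myeloid cells, the thinned shares were too few in cells to be set apart. Unthinned, they were 32.1% and 32.4%. With KLRB1 minimums of 2 and 5 UMIs the pooled levels were 372.6 and 392.1, against 377.7 with 3. Over cells of no rule the level was 30.3 (28.4 to 32.2) with no KLRB1 UMI, 207.9 with 1, 317.2 with 2, 308.5 with 3 to 5, 379.5 with 6 to 10 and 423.5 (397.7 to 450.5) with 11 or more. These are values pooled over libraries. In single libraries the bins were in ascending order on days 0 and 1 alone, and on day 14 they were 26.2, 81.7, 287.4, 63.8, 218.3 and 87.0, from 10 to 38 cells in each bin with KLRB1.

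**Figure D4:**
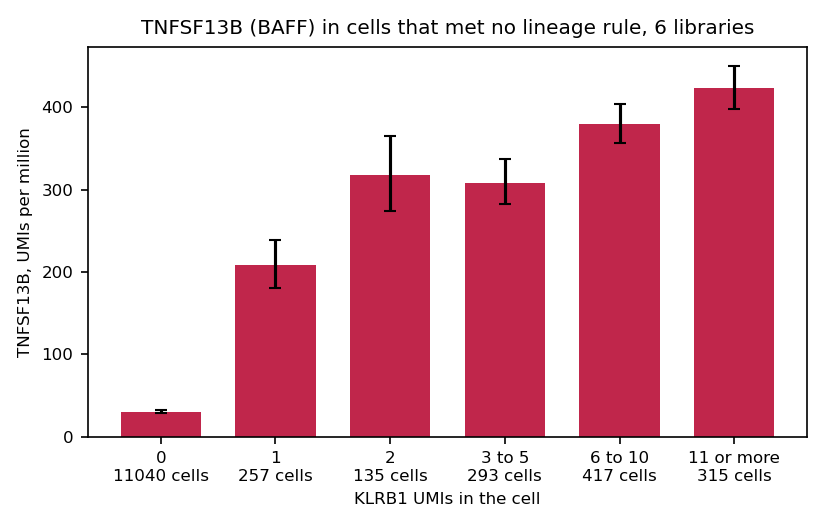
TNFSF13B level (bars, UMIs per 1000000, axis from 0) in cells that met no lineage rule, by the number of KLRB1 UMIs in the cell, with cell numbers under the bins and 95% Poisson intervals. Bars go from 30.3 in 11040 cells without KLRB1 to 423.5 in 315 cells with 11 or more UMIs.

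The same cells held some genes that, as background, are known from group 3 innate lymphoid cells, though no markers had been set for naming them, and they stay unnamed. Per 10000 UMIs the mast cell list (CPA3 and KIT) summed to 1.35 to 3.05 in them, more than in any of the 6 classes on the same day, but only 1 of its 2 genes had a UMI in them on each day. The myeloid list summed to 6.06 to 7.04, against 0.116 to 1.42 in T cells. Of its 8 genes, 4, 7, 3, 1 and 1 had a UMI in KLRB1 cells on days 0, 1, 3, 7 and 14, so on days 7 and 14 the sum was that of a single gene. These genes were picked after their values were seen. In KLRB1 cells of days 0 to 14, IL7R (the receptor of interleukin-7) was found in 71.8% to 94.6% of cells, IL23R in 28.2% to 64.4% and IL22 in 11.6% to 44.9%. In T cells of the 6 libraries, IL7R was found in 10.7% to 66.2%, IL23R in 0 to 3.26% and IL22 in 0.343% to 5.95%. CD247, a chain of the T cell receptor complex outside the rules, was in 4.35% to 12.8% of KLRB1 cells and 50.9% to 70.4% of T cells, but also in 7.04% to 54.6% of B cells. CD247 is 1 gene of the T list (CD3D, CD2, CD247, LCK and CD5). Per 10000 UMIs that list summed to 1.10 to 3.32 in KLRB1 cells, with at least 4 of its 5 genes found on each day. It summed to 4.79 to 11.7 in T cells and 0.601 to 2.36 in B cells. T cells with 3 or more KLRB1 UMIs, 73 in all, held TNFSF13B at 105.3 (79.1 to 137.4), against 7.28 in T cells as a whole.

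Myeloid cells, the textbook source of BAFF, came next. The class also held the follicular stroma list, at 0.0354, 6.91, 16.9 and 9.15 per 10000 UMIs on days 0, 1, 3 and 14. Its part in the levels was not tested. TNFSF13B in myeloid cells was 44.2, 68.8, 63.9 and 149.6 on days 0, 1, 3 and 14, and 67.6 in the 18 cells of day 7. The day 14 level was the highest, 3.38 times (2.33 to 4.88) that on day 0, from 74 cells. KLRB1 cells held 8.55 (6.72 to 11.01), 6.13 (5.42 to 6.93), 5.69 (4.62 to 7.07) and 6.64 (2.98 to 18.4) times the myeloid level on days 0, 1, 3 and 7, and 0.959 (0.627 to 1.46) times on day 14. Myeloid subsets, which overlapped in part, had no fixed order. On day 1, when each had over 100 cells, TNFSF13B was 101.1 (80.2 to 125.6) in myeloid cells with none of the subset markers, 78.9 (68.3 to 90.6) in those with macrophage markers (C1QA, C1QB, C1QC and CD163), 52.3 (41.7 to 64.9) in those with dendritic cell markers (FLT3, XCR1, CLEC9A and FCER1A) and 49.8 (40.6 to 60.4) in those with monocyte or granulocyte markers (S100A8, S100A12 and FCN1). On day 14 the last stood at 189.6 (126.0 to 274.0), from 31 cells. Cells with none of the subset markers are myeloid by the class rule alone. The day 1 class held the follicular stroma list at 6.91, against 3.99 in stromal cells, and which subset held it was not examined.

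Of the 6 classes tested, myeloid cells were highest in TNFSF13B, with a log2 fold change of 3.90 against the mean of the other 5 (SE 0.34, edgeR adjusted p = 5.21e-09). The KLRB1 cells are in none of these classes. Stromal cells stood at 20.2, 19.97 and 31.9 on days 0, 1 and 3, below the lowest myeloid library. Few cells carried this, as 1 of 252 stromal cells held 15 of the UMIs on day 0, and 4 cells held 21 on day 1 and 18 on day 3. The log2 fold change was 1.38 (SE 0.44, adjusted p = 0.0150; 20.6% of genes called higher in stromal cells), a call lost without the library of day 0 (1.39, adjusted p = 0.0554), day 1 (1.53, 0.0587) or day 3 (1.32, 0.0964). Epithelial cells ranged from 0 to 3.96 and were lower (-2.99, SE 0.52, adjusted p = 4.37e-05).

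B, T and plasma cells held little BAFF. In B cells TNFSF13B was 6.26, 6.48, 7.35, 4.26, 1.35 and 1.03 by day, and in barcodes with at most 100 UMIs 8.22, 16.2, 22.8, 3.71, 4.67 and 1.14. In value, B cells were below RNA outside cells in 5 of 6 libraries, day 7 being the exception. Those barcodes held 171 UMIs of the gene over the 6 libraries. Counting intervals overlapped on days 0, 7 and 21, so the order is not settled on those days. On the other days the intervals lay apart, with B cells lower. T cells ranged from 3.31 to 16.4 and plasma cells from 1.24 to 5.35, and both overlapped B cells. Neither B cells (log2 fold change -0.42, edgeR adjusted p = 0.330) nor T cells (0.13, adjusted p = 0.868) passed the test. Plasma cells were lower than the mean of the other classes (-1.99, SE 0.65, adjusted p = 0.0294; 9.35% of genes called lower), a call lost without the library of day 3 (-2.30, adjusted p = 0.0702), day 7 (-1.89, 0.142) or day 14 (-1.31, 0.0652).

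APRIL was scarce in every class, with 709 UMIs in 76099 cells. Over all cells TNFSF13 was 3.07, 3.74, 1.46, 0.980, 0.390 and 0.459 by day, and the ratio of day 21 to day 0 was 0.150 (0.0980 to 0.221). Epithelial cells held 46.1% of its UMIs on day 0, myeloid cells 31.7% on day 1 and B cells 89.7% on day 21, when 29 UMIs were found in all. These classes were 23.9%, 6.66% and 93.7% of the cells of those days, and they differed in depth. As levels, epithelial cells on day 0 (3.08) and B cells on day 21 (0.430) were near the values over all cells. Only myeloid cells on day 1 (14.3) stood well above.

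Of the 6 classes, stromal and myeloid cells had the highest median levels of APRIL over libraries, though on day 3 epithelial cells, at 7.91 (2.90 to 17.2) from 6 UMIs, stood above both. Stromal cells stood at 10.6 (5.10 to 19.5), 17.6 (11.9 to 25.2) and 3.41 (0.704 to 9.97) on days 0, 1 and 3. Myeloid cells stood at 5.90, 14.3, 1.92 and 11.5 on days 0, 1, 3 and 14, and barcodes with at most 100 UMIs at 0.203 to 2.98. The 2 ranges overlapped. Cells of no rule with 3 or more UMIs of the endothelial markers PECAM1, CDH5 and VWF stood at 7.10 (3.40 to 13.1), 12.2 (7.88 to 18.0) and 17.2 (3.54 to 50.1) on days 0, 1 and 3, the last from 3 UMIs in 26 cells. Within myeloid cells, those with monocyte or granulocyte markers held 35.8 (28.5 to 44.5) and those with macrophage markers 14.4 (10.6 to 19.1), and 70 of the 82 UMIs of the former came from the day 1 library.

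The log2 fold change of TNFSF13 was 2.24 in myeloid cells (SE 0.61, edgeR adjusted p = 0.00732) and 2.06 in stromal cells (SE 0.67, adjusted p = 0.0154). Without the day 1 library these were 1.69 (adjusted p = 0.139) and 1.64 (adjusted p = 0.173), so neither passed without it, and stromal cells did not pass without day 0 either (1.96, adjusted p = 0.0724). Epithelial cells ranged from 0 to 10.1 and did not pass (0.84, adjusted p = 0.273), but passed without day 1 (1.83, adjusted p = 0.0378). T cells, at 0 to 2.23, did not pass (-0.78, adjusted p = 0.385).

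B cells had less APRIL than the mean of the other classes. Their level was 1.44, 0.916, 1.05, 0.589, 0.211 and 0.430 by day, with a log2 fold change of -1.45 (SE 0.60, edgeR adjusted p = 0.0477; 10.1% of genes called lower in B cells). The call was lost without the library of day 1 (-1.48, adjusted p = 0.0817), day 3 (-1.80, 0.0669), day 14 (-1.17, 0.211) or day 21 (-1.51, 0.0539). Plasma cells held 2 UMIs in all and did not pass (-2.92, adjusted p = 0.0754), though they did without TMM (-3.23, adjusted p = 0.0343) and with DESeq2 (-2.68, adjusted p = 0.0421).

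Over all cells, BAFF and BAFF-R were highest at different ages. TNFSF13B over all cells was highest on day 3 and lowest on day 21, while TNFRSF13C was lowest on day 0 and highest on day 21, and B cells held 61.3% of its UMIs on day 0 and 98.0% on day 21. The makeup of the libraries differed between the same ages, and each age was 1 library.

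Of 44 genes of the pathway around the ligands and receptors (adaptors and NF-κB factors, survival genes, proteases that shed the ligands or receptors, and related family members), 42 were tested between classes. In B cells 9 were called higher and 4 lower, where 13.1% and 10.1% of all genes were, with a median log2 fold change of 0.26 against 0.18 over all genes. Highest were CD40, the receptor for T cell help (3.27, SE 0.19, edgeR adjusted p = 5.28e-12), IRF4, which directs switching and plasma cell formation (2.46), TRAF5, an adaptor of the family (2.14), and BCL2A1, a survival gene (2.06). Lowest were SDC1, the proteoglycan syndecan-1 that binds APRIL (-2.60), PRDM1 and XBP1, factors of the plasma cell program (-1.54 and -1.19), and TNFRSF12A, the receptor of TWEAK (-1.13). None of the 7 shedding genes was called in either direction.

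In plasma cells against B cells, 6 of the 42 were higher and 7 lower, where 3.63% and 5.11% of all genes were. PRDM1 (log2 fold change 3.30), XBP1 (3.20), SDC1 (2.98) and IRF4 (2.29) were the highest, and PRDM1, XBP1, SDC1 and IRF4 are also among the plasma markers. TRAF5 (-2.03), BCL2A1 (-1.62), the NF-κB factor REL (-1.61) and BIRC3, an inhibitor of apoptosis (-1.56), were the lowest. None of the 19 tested adaptor and NF-κB genes was higher, and 5 were lower. The median log2 fold change was -0.85 over these 19 and -0.55 over the 42, against -0.43 over all genes. With DESeq2's size factors the median over all genes was -0.05. The pathway genes were called with TMM alone.

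Myeloid cells had 18 of the 42 called higher and 2 lower, where 14.4% and 6.24% of all genes were, with a median of 0.62 against -0.10 over all genes. BCL2A1 (4.15), CD70 (3.46), CD40 (2.69) and TRAF1 (2.61) were the highest, and BCL2 (-1.55) and XBP1 (-1.01) the 2 lower ones. Stromal cells had 2 higher and 15 lower, where 20.6% and 10.8% of all genes were called. Epithelial cells had 2 higher and 11 lower (21.3% and 15.7% of all genes), T cells 9 higher and 3 lower (8.86% and 8.92%), and plasma cells against the mean of the others 9 higher and 5 lower (6.92% and 9.35%).

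With age, 40 of the pathway genes had enough UMIs in B cells to be set side by side, and 3 were at least 2-fold higher and 7 at least 2-fold lower on day 21 than on day 0, against 27.7% and 13.4% of all genes. The median ratio was 1.15 against 1.43. The higher ones were BCL2L1 (7.94 on day 0 and 37.1 on day 21), the protease gene ADAM17, which can shed surface receptors (7.82 and 24.3), and TRAF5 (46.1 and 135.9). Among the 7 lower ones, SDC1 went from 3.73 to 0.298, TNFSF12 from 14.6 to 1.46, PIM2 from 28.9 to 9.17 and NFKBIA, the inhibitor of NF-κB, from 291.3 to 112.3. The SDC1 values rest on 31 UMIs on day 0 and 18 on day 21, and SDC1 was called higher in epithelial cells (log2 fold change 3.49). The epithelial list (CDH1, KRT18, KRT19, FABP1, FABP2 and CLDN7) in B cells went from 1.02 to 0.0225 per 10000 UMIs between these days. The part of RNA from other cells in these falls was not tested.

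The genes whose levels ran most like each member over the 28 sums were found by Pearson's r of log2(UMIs per 1000000 + 1) among 11982 genes. The sums share libraries and differ in depth, so these are descriptions. For TNFRSF13C they were BTK (r = 0.947), SWAP70, SYK, PLEKHA2 and CNR2, and BTK and SYK are kinases of B cell receptor signalling. For TNFRSF17 they were UPK1B (0.940), LOC100038329, LOC100125542, EDEM2 and XKRX. For TNFRSF13B they were GHRL (0.791), WFDC2, FAM46C, TRAPPC5 and C5H12orf75, and GHRL encodes the gut hormone ghrelin. For TNFSF13B they were TIMP1 (0.899), HLX, ECM1, IL1RAP and SH3GLB1, and those for TNFSF13 included EPB41L2 (0.877), GLUL, IER3 and ABHD17C. With the 5 KLRB1 sums added, none of the 5 genes for TNFSF13B stayed on its list, which became PRAM1 (0.907), SH2D1B, GPCPD1, GLT8D2 and FFAR2, and none of the 5 stayed for TNFRSF13B. For TNFSF13 2 stayed, and for TNFRSF13C and TNFRSF17 4 each.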

How the data were processed

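Single cells of scraped ileal mucosa were measured with the 10x Genomics Chromium 3′ system. The kit is the second version in the study's methods and the third in the labels. The authors made the deposited counts with Cell Ranger 3.1.0 and STAR (per the labels) against Sscrofa11.1. Each matrix lists 20648 genes and 6794880 barcodes, without normalization or removal of empty droplets.

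Cells, classes and sums were built from these counts. A cell that met the B and plasma rules counted as plasma. Doublets were kept. Summed counts were tested with edgeR 4.0.16 in R 4.3.3 (quasi-likelihood, TMM, library block, sums of at least 20 cells, Benjamini-Hochberg over 12798 genes). Poisson, Clopper-Pearson and conditional binomial intervals at 95% (scipy 1.17.1, Python 3.11.15) cover counting error only. A floor is 3 counts. The age comparison of B cells took genes with at least 30 UMIs over both days.

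The members and gene lists were chosen with earlier results of these data known. The genes named are the members, the 5 most like each member (genes with at least 500 UMIs), up to 4 pathway genes per direction among those called, and markers. The KLRB1 gate, the genes shown with it and the split of plasma cells were added after the data were seen. Some genes of the lists, and results that need them, are not reported here, and sums and counts over the lists leave them out. BIRC2 is not among the gene symbols of the files. The test was checked on simulated data. Alternatives used DESeq2 1.42.0, no TMM, no filter, other class rules and thresholds, deeper cells, a mitochondrial share below 25%, at least 50 cells per sum, no library block and each library left out. The proteomic and other data of the study are not analysed here.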

Additional observations from a re-analysis of the deposited data

Results flagged for a closer look

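Cells that met no lineage rule enter no comparison between classes, and all 5 genes were found in them above the limit that a count of 0 allows. Over the 6 libraries they held TNFSF13B at 96.1 UMIs per 1000000, TNFRSF13C at 43.8, TNFRSF13B at 8.37, TNFSF13 at 3.41 and TNFRSF17 at 0.149. Barcodes with at most 100 UMIs held TNFSF13B at 8.92, TNFRSF13C at 92.6, TNFRSF13B at 8.45, TNFSF13 at 1.30 and TNFRSF17 at 1.41, also over the 6 libraries. By day, TNFRSF13C in cells of no rule was 17.2, 38.0, 49.5, 110.4, 82.5 and 98.7, above RNA outside cells on day 1 (24.3), below it on days 3, 14 and 21 and hardly different on days 0 and 7. TNFRSF13B in them was above it on days 1 and 3 (7.73 and 7.90 against 5.11 and 4.67) and by little on day 14 (11.4 against 10.1), with overlapping counting intervals on all 3 days, and TNFRSF17 rested on 6 UMIs. By day, TNFSF13B in cells of no rule was 76.2, 79.0, 174.5, 64.7, 59.1 and 4.44. This was above myeloid cells on days 0, 1 (by little) and 3 and below them on day 14 (149.6), and on day 7 it was within the counting interval of the 67.6 in 18 myeloid cells. The KLRB1 cells among them are described above. Groups of ages hold 1 library each, so no search for outlying samples within a group was made.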

How the results depend on the processing

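Over 10 other settings, TNFRSF13C in B cells kept its call (log2 fold change 2.69 to 4.03), as did TNFRSF17 in plasma against B cells (4.96 to 7.78) and TNFSF13B in myeloid cells (3.12 to 5.54). With each library left out in turn these were 3.56 to 3.995, 6.28 to 7.22 and 3.404 to 4.21. TNFRSF13B in B cells did not pass 0.05 with DESeq2 (0.48), without TMM (0.47), with the rules as written (0.22), with cells of the B and plasma rules left out (0.34), with thresholds doubled (0.55), with at least 50 cells (0.66) or with no library block (0.63), and ranged from 0.42 to 0.81 with a library left out. TNFSF13 in myeloid cells did not pass with cells of both rules left out (3.26), a setting that leaves 1 plasma sum of 30 cells (the lone sum is assumed to vary like the others), and ranged from 1.69 to 2.85 with a library left out. That setting also ended the calls of TNFRSF13C in plasma cells, of both ligands in stromal cells and of TNFSF13B in epithelial cells. It ended those of TNFRSF13C and TNFRSF13B in plasma against B cells too. TNFRSF13B in epithelial cells, under a fold of 2 in the main fit, did not pass 0.05 in that setting either. In it TNFSF13B in B cells changed sign (1.09, adjusted p = 1.00), and with the rules as written TNFRSF13C in myeloid cells did (-0.20). Without the library as a replicate block, TNFRSF13B in B cells, below a fold of 2 in the main fit, no longer passed 0.05. TNFSF13 in plasma cells passed in that fit (-3.48, edgeR adjusted p = 0.0149). No other reported contrast crossed 0.05 in it. TNFSF13 in B cells did not pass in 4 of the 10 settings (no filter, both rules left out, thresholds doubled, at least 50 cells), with values from -1.80 to -0.66 over all 10. TNFSF13B in plasma cells did not pass in 3 (rules as written, both rules left out, thresholds doubled), nor TNFRSF13B in epithelial cells with the rules as written (0.40).

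Genes called numbered 2970 in B, 2641 in myeloid and 1119 in plasma against B cells. With a library left out these were 2419 to 3031, 2152 to 2623 and 486 to 888, the lowest without day 7, and 299 in plasma against B cells with cells of both rules left out. The day 21 to day 0 ratio of TNFRSF13C in B cells was 2.61 with the rules as written and 1.64 with TMM scaling, and that of TNFRSF17 was 0.288 (0.135 to 0.684) with thresholds doubled, on few UMIs. The causes were not tested. Of the 5 genes most like each member, Spearman's rho kept 4 for TNFRSF13C, 2 for TNFRSF13B, 2 for TNFRSF17, 1 for TNFSF13B and 0 for TNFSF13.

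With 1 library per age, differences between ages carry no replicate error, and classes under 20 cells carry no test. At these depths a share of cells with a UMI understates expression. Levels at or below those of barcodes with at most 100 UMIs were not taken as evidence of expression. The rankings and tests between classes were not corrected for RNA outside cells, and they include such levels.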
